A study of Mus musculus with 6 samples.

Results

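The Slc22 genes encode carriers that move organic anions, organic cations and zwitterions such as carnitine across the cell membrane. Of 8 Slc22 genes set out for study (Slc22a3, Slc22a4, Slc22a5, Slc22a7, Slc22a15, Slc22a18, Slc22a23 and Slc22a30), 7 had at least 1 probe set to which the array annotation gives that gene symbol and no other. These 7 genes had 10 probe sets among the 45037 non-control probe sets of the array. No probe set was listed for Slc22a3, which was not analysed here. The RNA came from the livers of 3 mice without S1P lyase, labelled knock-out, and 3 wild-type (WT) mice, all of a mixed C57BL6 and 129sv strain background and without treatment, with 1 Affymetrix array per animal. S1P lyase is the enzyme, encoded by Sgpl1, that cleaves sphingosine 1-phosphate, and the series asks how its loss alters lipid handling in the liver. The labels give no age, sex or litter, and do not say whether the enzyme was missing in every tissue.

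In the liver, Slc22 carriers on the sinusoidal face of hepatocytes take up drugs, hormones, bile constituents and nutrients from the blood, and they work beside the Slco uptake carriers and the ABC exporters. Slc22a7 (OAT2) is an organic anion transporter of hepatocytes, and Slc22a5 (OCTN2) is the sodium-dependent carnitine transporter that supplies fatty acid oxidation. Slc22a4 (OCTN1) and Slc22a15 carry zwitterions such as ergothioneine, Slc22a18 lies in an imprinted region, Slc22a23 is an orphan, and Slc22a30 belongs to a rodent branch of organic anion transporter genes.

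The 6 arrays were alike in median signal, at 4.06 to 4.14 log2. Sgpl1 read 2.46 to 2.99 in the knockout and 6.65 to 6.90 in WT on its brighter probe set, so the targeted gene matched the labels, though where its probes lie relative to the deleted part is not stated. The mean over hepatocyte markers was 12.30 to 12.70 log2 in every array, which fits the tissue label. In the knockout, 3 of 9 tested hepatocyte markers fell and 0 rose, and the log2 of their summed signal was 16.25 to 16.34 against 16.36 to 16.49 in WT. Of 11 neutrophil markers 10 rose, with a summed signal of 13.74 to 13.90 against 9.15 to 9.46. Among other cell type markers, 6 of 6 for monocyte-derived macrophages, 4 of 4 for B and plasma cells and 3 of 6 for T and NK cells rose. Of 12 Kupffer cell and macrophage markers 3 rose and 4 fell, and of 7 endothelial markers 1 rose and 1 fell. Of 7 stellate cell markers 2 fell and 0 rose, and of 4 erythroid markers 1 rose and 0 fell. Of 3 cholangiocyte and 2 basophil and mast cell markers, 0 rose and 0 fell. For comparison, 8.1% of all genes tested fell and 10.5% rose. For Actb, the 3'-end probe set exceeded the 5'-end one, a control for RNA integrity, by 1.12 to 1.45 log2 in the knockout and by 0.81 to 0.97 in WT (p = 0.1 by a two-sided exact permutation test, which can go no lower with 3 against 3). The same measure was 0.25 to 0.57 in the knockout against -0.06 to 0.07 in WT for Gapdh. For Pcx it was 2.77 to 3.40 against 1.97 to 2.31 (p = 0.1 for each by the same permutation test). The 24 poly-A control probe sets, for RNAs spiked in before labelling, were brighter in the knockout by a mean of 0.749 log2. The brightest Xist probe set read 10.72 to 11.41 in the 6 arrays, and the 9 probe sets of the Y-linked genes Eif2s3y, Kdm5d and Uty read 1.77 to 3.08 in every array, below the level at which probe sets were tested.

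In the knockout livers, 3 of the 6 tested Slc22 members fell and 0 rose. Slc22a30 was 5.18-fold lower, Slc22a7 3.09-fold lower and Slc22a18 1.82-fold lower than in WT. Slc22a5, Slc22a15 and Slc22a23 did not pass the test. Over all 13364 genes tested, 8.1% fell and 10.5% rose (limma, Benjamini-Hochberg adjusted p under 0.05). The knockout and WT values did not overlap in the 3 members that fell, as was the case in 40.9% of all genes tested. The median difference, knockout minus WT, was -0.50 log2 over the 6 members and -0.05 over all genes tested. Among the members' 8 tested probe sets 4 fell, against 7.84% of all 27002 probe sets tested. Since the members were chosen with earlier results of these data known, these counts and medians are a description only. The other 2 probe sets, the single one for Slc22a4 and the dimmer one for Slc22a15, had mean signals below the filter of 3.58 log2 and were not tested. In bulk tissue, fewer cells of a type and less RNA per cell cannot be told apart. The part of the RNA integrity and cell marker values above in these falls was not tested. With arrays centred on hepatocyte markers the same 3 genes fell, with differences of -2.19 log2 for Slc22a30, -1.44 for Slc22a7 and -0.68 for Slc22a18. With arrays centred on the poly-A controls, every difference is 0.749 lower and all 6 members fell.

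**Figure D1:**
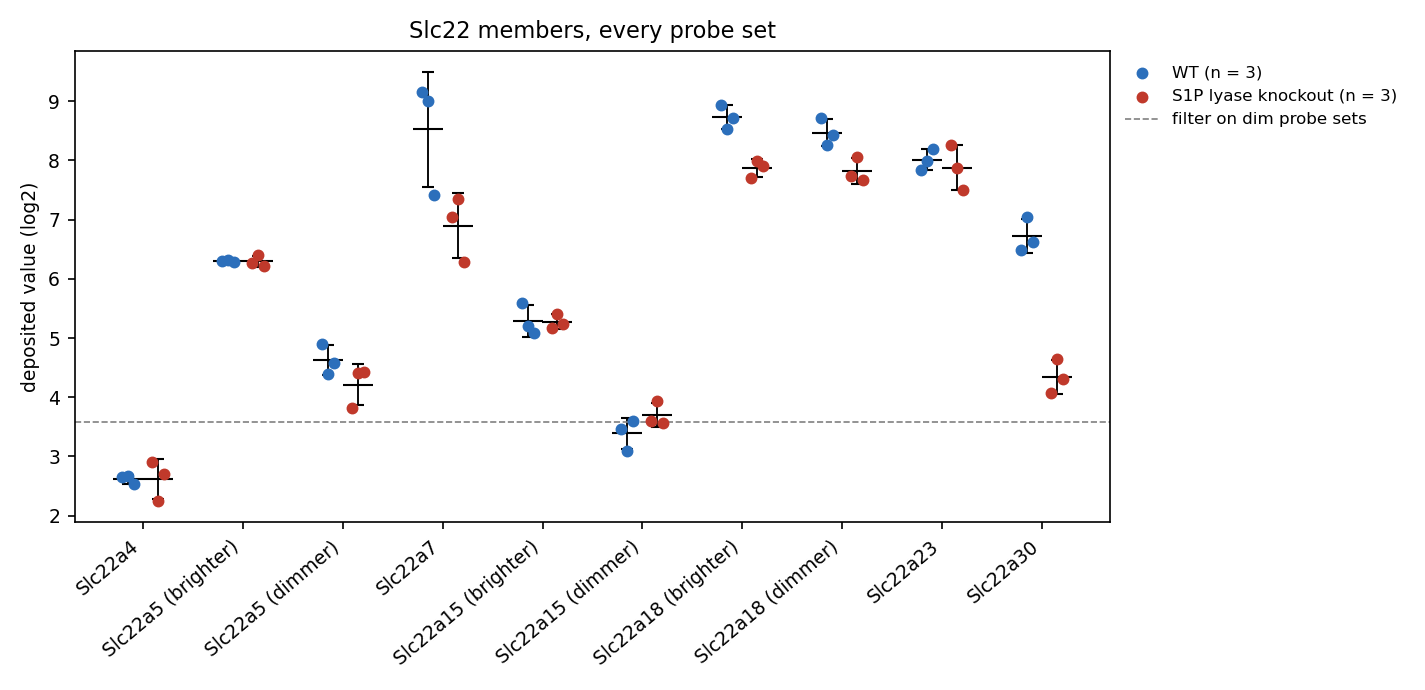
Deposited log2 value (vertical axis) of every probe set of the 7 measured Slc22 members in the 3 WT (blue) and 3 knockout (red) livers, with 1 point per animal, bars at the mean and SD, and a dashed line at the filter of 3.58 log2. Slc22a30, Slc22a7 and both Slc22a18 probe sets lie lower in every knockout than in every WT liver, the Slc22a4 probe set lies below the filter in all 6, and levels of different probe sets are not comparable with each other.

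Slc22a30 had the steepest fall of the members. Its probe set read 4.07, 4.65 and 4.31 log2 in knockout replicates 1 to 3 and 6.48, 7.04 and 6.62 in WT replicates 1 to 3. Every knockout liver lay below every WT liver, and the gap between the groups was wider than the range within either. The means were 4.34 ± 0.29 (SD, n = 3) and 6.71 ± 0.29, which puts the knockout at -2.37 relative to WT (SE 0.19, limma adjusted p = 0.00026). The difference ran from -2.53 to -2.21 when each array was left out in turn, and it was called each time.

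Slc22a30 lies on chromosome 19 in a run of related genes, Slc22a19, Slc22a26, Slc22a27, Slc22a28, Slc22a29 and Slc22a30. No other protein-coding gene lies between them in the annotation of GRCm38.p6. Slc22a29 and Slc22a27, both rodent organic anion transporter relatives, fell as well. Slc22a29 read 8.08, 7.96 and 7.81 in the knockout and 8.88, 8.96 and 8.83 in WT, so that it fell by 0.94 (SE 0.12, limma adjusted p = 0.00161). Slc22a27 read 8.35, 8.34 and 8.40 in the knockout and 9.09, 9.35 and 9.28 in WT, so that it fell by 0.88 (SE 0.11, limma adjusted p = 0.00176). In both genes all knockout values lay below all WT values, and those of Slc22a27 lay close together. Slc22a26 was lower in every knockout liver on both of its probe sets, at 7.73 to 7.94 against 8.10 to 8.46 on the brighter, but with -0.38 (SE 0.13, limma adjusted p = 0.0846) it did not pass. The probe sets of Slc22a27 and Slc22a29 are of a kind (suffix x_at) that can read related transcripts, so the genes of this run may not be fully separated. Slc22a19 was dim in all arrays (2.53 to 2.83 log2) and was not tested, and Slc22a28 was not analysed here. Slc22a8 and Slc22a6 also lie on chromosome 19, on the other side of Slc22a30 from Slc22a29. Slc22a6 differed by 0.004 and did not pass, and Slc22a8 had probe sets below the filter only. Whether the falls within the run differ in size was not tested.

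**Figure D2:**
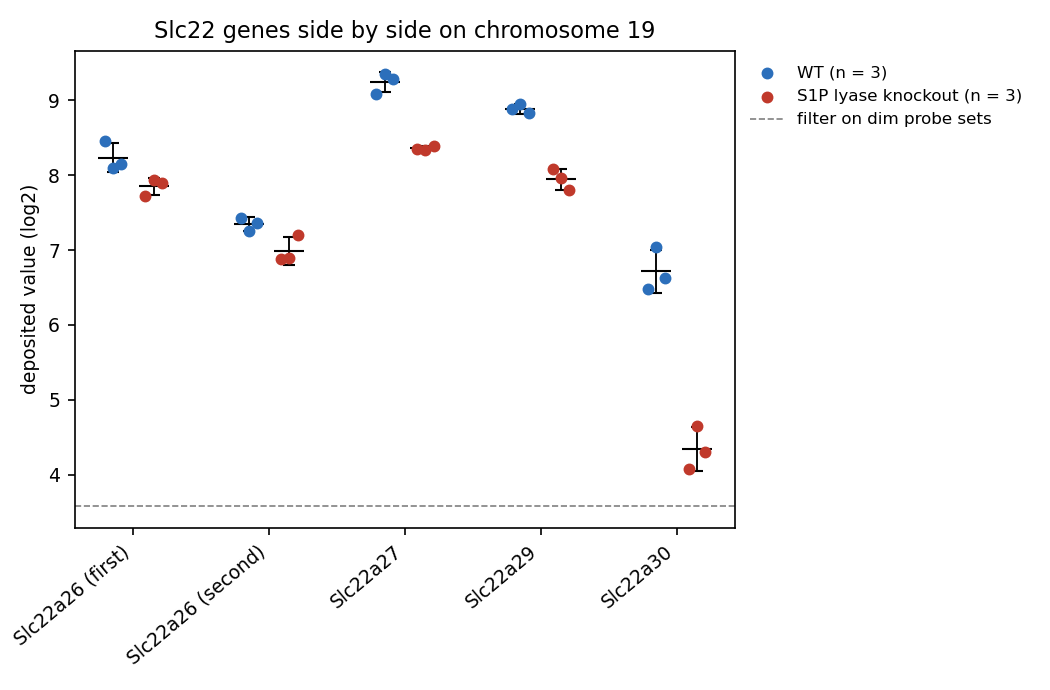
Deposited log2 value (vertical axis) of the probe sets of Slc22a26, Slc22a27, Slc22a29 and Slc22a30 in their order on chromosome 19, in 3 WT (blue) and 3 knockout (red) livers, with 1 point per animal and bars at the mean and SD. All 3 knockout points lie below all 3 WT points on each probe set, and Slc22a26 is the gene whose difference, -0.38 log2, did not pass the test.

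The stretches around the transcription starts are shown for Slc22a30 and its neighbour Slc22a29, which fell together, for Slc22a18, which also fell, and for Slc22a5, which did not pass, because they differ in their content of CG dinucleotides. Each is 250 bases before to 50 after the start, from RefSeq's annotation of GRCm38.p6, written 5' to 3' on the gene's own strand, with each CG dinucleotide in capitals. Slc22a30 lies at chr19:8405056-8405355 (minus strand), Slc22a29 at chr19:8218851-8219150 (minus strand), Slc22a18 at chr7:143473539-143473838 (plus strand) and Slc22a5 at chr11:53891654-53891953 (minus strand).
Slc22a30: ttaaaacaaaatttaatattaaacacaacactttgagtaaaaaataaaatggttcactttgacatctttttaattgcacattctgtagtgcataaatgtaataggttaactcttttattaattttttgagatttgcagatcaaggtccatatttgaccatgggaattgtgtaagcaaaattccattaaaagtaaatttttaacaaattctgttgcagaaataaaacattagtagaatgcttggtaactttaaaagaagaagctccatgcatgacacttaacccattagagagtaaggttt
Slc22a29: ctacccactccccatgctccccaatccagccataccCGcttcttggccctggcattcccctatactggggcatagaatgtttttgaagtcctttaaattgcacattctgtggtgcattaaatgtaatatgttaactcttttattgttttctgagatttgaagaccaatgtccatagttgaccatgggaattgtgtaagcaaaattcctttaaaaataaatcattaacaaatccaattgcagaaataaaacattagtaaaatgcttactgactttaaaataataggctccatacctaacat
Slc22a18: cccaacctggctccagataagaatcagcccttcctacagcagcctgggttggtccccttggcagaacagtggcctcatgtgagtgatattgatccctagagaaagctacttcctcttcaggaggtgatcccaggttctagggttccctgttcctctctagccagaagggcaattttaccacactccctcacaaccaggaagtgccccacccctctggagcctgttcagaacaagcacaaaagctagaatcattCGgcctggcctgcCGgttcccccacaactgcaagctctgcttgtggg
Slc22a5: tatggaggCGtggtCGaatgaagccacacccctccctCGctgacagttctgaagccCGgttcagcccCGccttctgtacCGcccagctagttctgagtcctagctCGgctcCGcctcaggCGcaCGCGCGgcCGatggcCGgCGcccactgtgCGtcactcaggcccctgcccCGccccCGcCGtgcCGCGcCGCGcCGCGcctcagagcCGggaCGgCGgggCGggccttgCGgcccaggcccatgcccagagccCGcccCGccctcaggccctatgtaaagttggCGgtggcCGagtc

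The Slc22a30 promoter held 0 CG dinucleotides, that of Slc22a29 held 1, that of Slc22a18 held 2 and that of Slc22a5 held 34. The median over 32851 promoters of the table was 7. Among the other members with an entry, Slc22a15 and Slc22a4 held 29 each, Slc22a23 held 38 and Slc22a3 held 5. The 2 fallen members with an entry had the lowest counts, while the 3 tested members that did not pass lay above at least 87.1% of all promoters. Slc22a7 had no entry. A low count was not limited to genes that fell: among other Slc22 genes, Slc22a13 with 0 and Slc22a6 with 2 did not pass the test. The Slc22a29 and Slc22a30 promoters were identical at 211 of 271 aligned bases (77.9%), and those of Slc22a28 and Slc22a30 at 288 of 294 (98.0%). The pairs that include Slc22a26 or Slc22a27 were identical at 54.9% to 61.1% of aligned bases. How far the Slc22a30 probe set also reads Slc22a28 was not tested.

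Short motifs were searched on both strands of these 4 promoters. A C/EBP-type motif, TTGCNNAA, matched once in Slc22a30 and once in Slc22a29, and matched in 10.8% of all promoters. Both matches lie in a stretch that these related promoters share, ttgcagaaataaaacattagta, so they are not independent. An HNF1-type motif, GTTAAT, matched once in Slc22a29, with no overlap with the C/EBP-type match, and matched in 7.1% of all promoters. The nuclear receptor core AGGTCA (16.3% of promoters), the TATA box TATAAA (13.6%) and the STAT-type motif TTCNNNGAA (8.3%) matched in 0 of the 4.

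Slc22a7, the hepatocyte organic anion transporter, fell with a wide spread between animals. Its probe set read 7.05, 7.35 and 6.29 log2 in the knockout and 9.16, 8.99 and 7.41 in WT. WT replicate 3 stood well below the other WT livers and only just above knockout replicate 2, so the groups were apart by a narrow margin. The means were 6.90 ± 0.55 (SD, n = 3) in knockout and 8.52 ± 0.97 in WT. The difference was -1.63 (SE 0.46, 95% interval -2.70 to -0.55, limma adjusted p = 0.0458). This call was lost on leaving out any array but WT replicate 3: the difference was -1.70 without knockout replicate 1, -1.85 without knockout replicate 2, -1.32 without knockout replicate 3, -1.31 without WT replicate 1 and -1.39 without WT replicate 2, with limma adjusted p-values of 0.0792 to 0.131. Without WT replicate 3 it was -2.18 (limma adjusted p = 0.00393).

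Slc22a18, a carrier gene of the imprinted region of distal chromosome 7, fell on both of its probe sets. The brighter read 7.71, 7.99 and 7.91 log2 in the knockout and 8.94, 8.53 and 8.72 in WT. The other read 7.73, 8.06 and 7.66 in the knockout and 8.71, 8.26 and 8.42 in WT. All knockout livers lay below all WT livers on each, with a smaller gap on the second. The brighter probe set differed by -0.86 (SE 0.14, 95% interval -1.19 to -0.54, limma adjusted p = 0.00535), called on leaving out each array in turn. The other gave -0.65 (SE 0.16, limma adjusted p = 0.0293 over all probe sets tested). It was no longer called without knockout replicate 1 (-0.60), knockout replicate 3 (-0.57) or WT replicate 1 (-0.52), nor with arrays centred on hepatocyte markers (-0.46). Of 11 tested genes from the imprinted regions around Slc22a18 and Slc22a3, 3 fell and 0 rose, with a median difference of -0.07 log2. The shares over all genes tested were 8.1% and 10.5%. The tetraspanin gene Cd81 fell by 0.55 (SE 0.10), Osbpl5, an oxysterol-binding protein gene, by 0.41 (SE 0.10) and the transcription factor gene Ascl2 by 0.45 (SE 0.12), with limma adjusted p-values of 0.00744 to 0.0411. Cdkn1c, Phlda2, Kcnq1 and Nap1l4, which lie in the same imprinted region as Slc22a18, did not pass. The 3 falls dropped to 1 without any of the knockout replicates, without WT replicate 2 or with a filter at the 60th percentile, which leaves out Osbpl5 and Ascl2 as dim, and to 0 with arrays centred on hepatocyte markers.

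**Figure D3:**
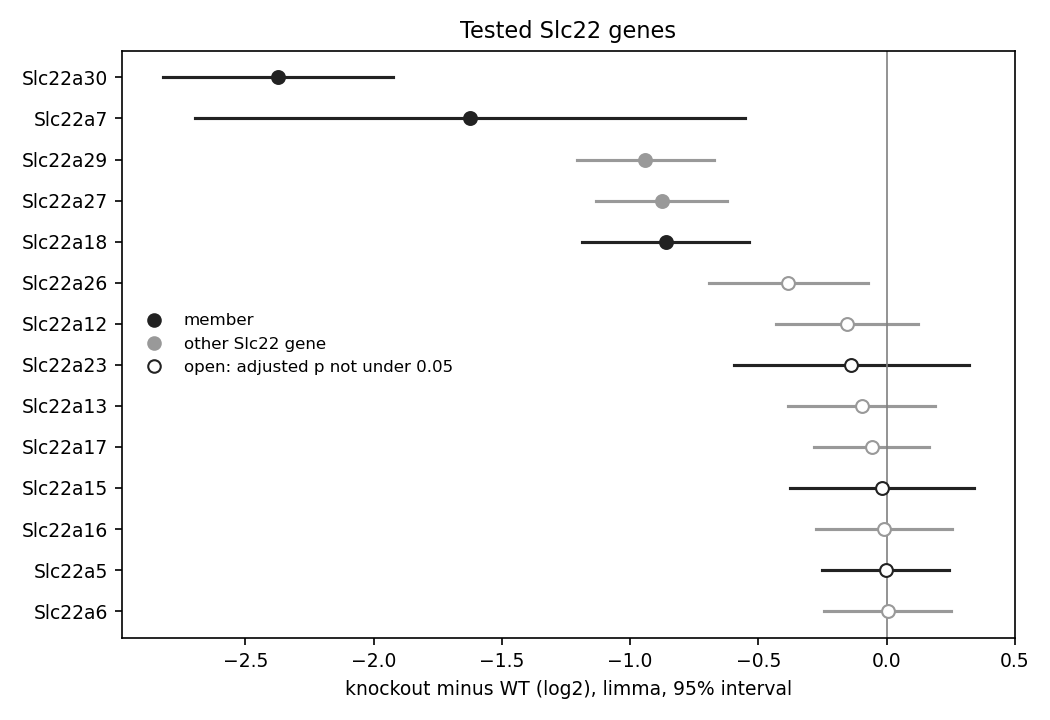
Difference between knockout and WT in log2 (horizontal axis, limma, 95% interval) for the 6 tested members (black) and 8 other tested Slc22 genes (grey), with filled points for an adjusted p under 0.05. The filled points are Slc22a30, Slc22a7, Slc22a29, Slc22a27 and Slc22a18, all below 0, and the interval of Slc22a7 is the widest.

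Slc22a5, the carnitine transporter, differed little in its brighter probe set. That probe set read 6.26, 6.40 and 6.22 log2 in the knockout and 6.30, 6.32 and 6.29 in WT, with overlapping groups and WT livers that lay close together. The difference was -0.004 (SE 0.11, limma adjusted p = 0.983), with a 95% interval of -0.25 to 0.24, and it was 0.18 with arrays centred on hepatocyte markers. The dimmer probe set read 3.82, 4.40 and 4.42 in the knockout and 4.90, 4.39 and 4.58 in WT. Its groups overlapped and its difference of -0.41 (SE 0.20, limma adjusted p = 0.186) did not pass.

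Enzymes of carnitine synthesis fell in the same livers. Of 9 tested genes of carnitine synthesis, transport and use, 4 fell and 0 rose, with a median of -0.455 log2. The shares over all genes tested were 8.1% and 10.5%. Bbox1, which makes carnitine from gamma-butyrobetaine, read 9.12, 9.15 and 8.78 in the knockout and 9.94, 10.07 and 9.99 in WT, and fell by 0.99 (SE 0.13, limma adjusted p = 0.00195). Tmlhe and Aldh9a1, the enzymes of earlier steps of carnitine synthesis, fell by 0.70 (SE 0.14) and 0.45 (SE 0.12). Crot, the peroxisomal carnitine octanoyltransferase, fell by 1.03 (SE 0.16, limma adjusted p = 0.00405) on its brighter probe set, while the dimmer differed by -0.22 and did not pass. Probe sets of a gene did not always move alike: Tmlhe was called on 1 of its 3 tested probe sets, and the others differed by -0.03 and -0.11. Aldh9a1 was called without 1 of the 6 arrays only, WT replicate 2, though its dimmer probe set fell by 0.89. Cpt1a starts the entry of acyl groups into mitochondria, and its probe sets disagreed. The brightest differed by 0.19 and did not pass, while the other 2 rose, by 1.09 (SE 0.17, limma adjusted p = 0.0044 over all probe sets tested) and 0.93 (SE 0.15, limma adjusted p = 0.00531), with every knockout liver above every WT liver. Those 2 are of the x_at kind. On the mean of each gene's probe sets Cpt1a rose by 0.74 (limma adjusted p = 0.00773) and Tmlhe did not pass. Slc25a20, the mitochondrial carnitine carrier, differed by 0.28 and -0.20 on its probe sets and did not pass. Crat differed by -0.19 on its brightest probe set and by -0.22 on its dimmest, and neither passed. Its remaining probe set rose by 0.57 (SE 0.17, limma adjusted p = 0.0495 over all probe sets tested). With arrays centred on hepatocyte markers 2 of the 4 falls were called. Those lost were the synthesis enzymes Tmlhe (limma adjusted p = 0.0759) and Aldh9a1 (limma adjusted p = 0.344). Aldh9a1 was also not called on quantile normalization (limma adjusted p = 0.0526) or median centring (limma adjusted p = 0.0537).

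Slc22a15, the zwitterion carrier, did not pass. Its brighter probe set read 5.18, 5.41 and 5.24 log2 in the knockout and 5.60, 5.20 and 5.09 in WT. The groups overlapped, and the difference was -0.02 (SE 0.16, 95% interval -0.38 to 0.34, limma adjusted p = 0.949). Its dim probe set read 3.61, 3.94 and 3.57 in the knockout and 3.46, 3.10 and 3.61 in WT, also with overlap. Slc22a4, the ergothioneine carrier, was dim in every liver, at 2.91, 2.25 and 2.71 in the knockout and 2.65, 2.67 and 2.53 in WT. No detection calls were used, so whether Slc22a4 is above background is not known.

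Slc22a23, the orphan member, read 8.26, 7.86 and 7.50 log2 in the knockout and 7.84, 8.0 and 8.19 in WT. The knockout livers spread around the WT range, with knockout replicate 3 the lowest and knockout replicate 1 the highest. Its difference was -0.14 (SE 0.20, 95% interval -0.59 to 0.32, limma adjusted p = 0.652).

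The rest of the family was mostly dim or close to 0 in its difference. Of 16 other Slc22 genes listed, 13 had a probe set and 8 were tested, of which 2 fell, Slc22a27 and Slc22a29, and 0 rose, with a median difference of -0.13 log2. The shares over all genes tested were 8.1% and 10.5%. Slc22a12, Slc22a13, Slc22a17, Slc22a16 and Slc22a6 differed by -0.15, -0.10, -0.06, -0.01 and 0.004 and did not pass, each with overlapping groups. Slc22a6 and Slc22a12 are best known as renal carriers of organic anions and urate. The listed genes Slc22a2, Slc22a8, Slc22a14, Slc22a19 and Slc22a21 had probe sets below the filter only.

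Carriers that share substrates with the Slc22 family fell more often than they rose. Of 16 tested, 6 fell, 1 rose and 9 did not pass, with a median of -0.51 log2, while 8.1% of all genes tested fell and 10.5% rose. Slc10a1, the sodium-dependent bile acid uptake carrier, read 10.90, 10.94 and 10.81 in the knockout and 11.87, 11.97 and 12.12 in WT, and fell by 1.10 (SE 0.10, limma adjusted p = 0.000429). The nucleoside carrier Slc29a1 fell by 1.09 (SE 0.11), the bile salt export pump gene Abcb11 by 1.37 (SE 0.17) and the organic anion carrier gene Slco2b1 by 1.64 (SE 0.22). Slc47a1, which exports organic cations, was lower by a difference of -0.66 (SE 0.25, limma adjusted p = 0.109) and did not pass. The exporter gene Abcc4 was the single rise (0.65, SE 0.17). It was not called without any of the 3 knockout replicates, without WT replicate 1 or 2 or with arrays centred on the poly-A controls, and the filter at the 60th percentile leaves it out as dim.

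Of the genes that break down or make the amines carried by this family, 2 of 6 tested fell and 1 rose, beside 8.1% and 10.5% of all genes tested. The monoamine oxidase genes Maob and Maoa fell by 0.94 (SE 0.13) and 0.53 (SE 0.13). Maob was called without each array in turn, but Maoa in 2 of 6 such fits, those without WT replicate 2 or 3, and not with arrays centred on hepatocyte markers. Hdc, which makes histamine, was the rise, at 0.45 (SE 0.13, limma adjusted p = 0.0428). Its call held in 1 of the 6 fits that leave out an array, that without WT replicate 1, and was lost with no filter (limma adjusted p = 0.0537) and on quantile normalization (0.0729). With arrays centred on the poly-A controls it was -0.30. Among 16 tested regulators of hepatocyte genes, 2 fell, 1 rose and 13 did not pass, while 8.1% of all genes tested fell and 10.5% rose, so the called share is near the background. Nr1i3 (CAR), a nuclear receptor for xenobiotics, fell by 1.27 (SE 0.13, limma adjusted p = 0.000819) and Nr0b2 (SHP), a nuclear receptor that represses bile acid synthesis, by 0.90 (SE 0.21), the latter not called without knockout replicate 1 or 2. Cebpb, a transcription factor of the acute phase response, rose by 1.12 (SE 0.21, limma adjusted p = 0.00856), a call lost with arrays centred on the poly-A controls. Its dimmer probe set differed by 0.72 (SE 0.22, limma adjusted p = 0.0548 over all probe sets tested) and did not pass. Hnf4a, a regulator of many hepatocyte carriers, differed by -0.07 (SE 0.20) on its brightest probe set and did not pass. Its 3 other probe sets differed by -0.23, -0.95 and -1.16, and the last of these fell (SE 0.30, limma adjusted p = 0.0339 over all probe sets tested), so the Hnf4a probe sets disagreed. Stat5b differed by -0.24 on its brighter probe set and did not pass, while its dimmer one fell by 0.67 (SE 0.12, limma adjusted p = 0.00885 over all probe sets tested). In liver genes known to differ between the sexes, 4 of 6 tested male-biased genes and 2 of 6 tested female-biased genes fell, and 0 of either rose. The same shares over all genes, 8.1% fallen and 10.5% risen, apply. Every liver of both genotypes was bright in Xist and dim in the Y-linked genes, as given above. The male-biased count was 0 without knockout replicate 2. The female-biased count was 1 without knockout replicate 2, knockout replicate 3 or WT replicate 1. Knockout replicate 3 and WT replicate 3 stood apart in Cyp2b9, a female-biased cytochrome P450 gene, at 2.59 and 2.69 against 7.81 to 9.28 in the other livers. WT replicate 3 also read 4.09 in Cyp2b13, a related gene, against 7.40 and 8.10 in the other WT livers. All knockout livers read 4.14 to 4.41 in Cyp2b13, so knockout replicate 3 did not stand apart in that gene. Knockout replicate 3 and WT replicate 3 had the lowest Slc22a7 value of their group, 6.29 and 7.41, and whether the values are related was not tested.

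The genes whose log2 values were most like those of each fallen member over the 6 arrays are given as a description, since the arrays are of both genotypes. For Slc22a30 these were Scrn2, Acot4 and Fndc4 (Pearson's r of 0.998, 0.996 and 0.996), which differed by -0.83, -1.48 and -1.30 log2. For Slc22a18 they were Tmem205, Lmf1 and Psenen (0.997, 0.993 and 0.993), which differed by -0.41, -0.51 and -0.15, the last without passing the test. The calls of Tmem205 and Lmf1 were lost with arrays centred on hepatocyte markers and in 4 and 5 of the 6 fits that leave out an array. For Slc22a7 they were Ptgds, Calcoco1 and Gabrg3 (0.997, 0.997 and 0.996), which differed by -0.53, -0.41 and -0.27 and did not pass the test. Among the members themselves, r was 0.921 between Slc22a18 and Slc22a30, 0.80 between Slc22a7 and Slc22a30 and 0.764 between Slc22a7 and Slc22a18.

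**Figure D4:**
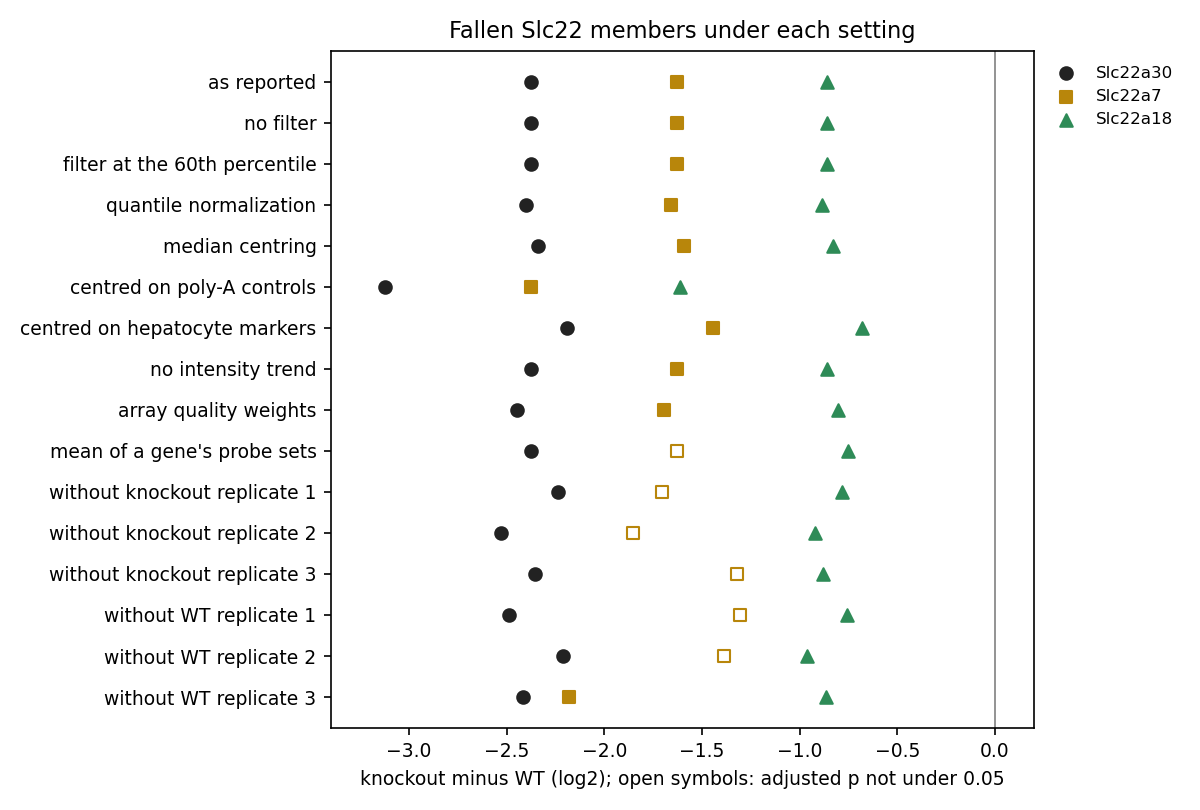
Difference between knockout and WT in log2 (horizontal axis) for Slc22a30 (circles), Slc22a7 (squares) and Slc22a18 (triangles) as reported and under each other setting (vertical axis), with open symbols where the adjusted p was not under 0.05. Every symbol lies below 0, and the open symbols are all of Slc22a7.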

How the data were processed

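TRIzol was used to extract the RNA, and labelling followed Affymetrix's standard, per the labels' protocols. The authors deposited log2 values, 1 per probe set and array. The submitters' processing notes name MAS5 without a role; for the background correction, scaling and summary, a method is not given in the sources used. That the values are log2 was taken from their range. The annotation gave 34958 of 45101 probe sets exactly 1 symbol, of which 34754 were matched by gene identifier to GRCm38.p6, used for names, gene order and RefSeq promoters. Tests left out the 64 controls and every probe set with a mean below 3.58 log2, the 40th percentile, and each gene was read by its brightest remaining probe set. The test of knockout against WT was limma's (version 3.58.1, R 4.3.3; lmFit, eBayes with an intensity trend, two-sided) across all genes, and again across all probe sets, calling an adjusted p under 0.05 (Benjamini-Hochberg). "Rose" and "fell" are used of calls. Replicates are separate mice, numbered only to name them. The fit was checked on simulated data. Members and lists were chosen with earlier results of these data known. The genes named are the members, other tested Slc22 genes, up to 4 genes of each further list and up to 2 of each marker list by adjusted p, Sgpl1, and the 3 genes most correlated with each fallen member. Named outside this rule, with values already seen, were Cdkn1c, Phlda2, Kcnq1, Nap1l4, Cpt1a, Crat, Slc25a20, Slc47a1, Abcc4, Hnf4a, Stat5b, Cyp2b9, Cyp2b13, the other Slc22 genes below the filter and the Y-linked genes. Alternatives were no filter on dim probe sets or one at the 60th percentile, quantile normalization, centring on medians, poly-A controls or hepatocyte markers, no trend, array weights, averaging a gene's probe sets, and leaving out each array. The use of 3 arrays per group limits precision.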

Additional observations from a re-analysis of the deposited data

How the results depend on the processing

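Slc22a30 and Slc22a18 fell under all 15 alternatives tried, and Slc22a7 was lower under all 15 but called under 9. Averaging each gene's probe sets left 2 members that fell, with an adjusted p of 0.0507 for Slc22a7. Centring on the poly-A controls called 10491 genes, 377 higher and 10114 lower, with 6 members and 8 member probe sets falling. Centring on hepatocyte markers left 361 genes that fell. Leaving out each array in turn gave 1322 to 2388 genes called, of which 775 to 1447 rose and 528 to 941 fell, with 2 to 3 members and 2 to 4 member probe sets falling. Differences of named genes that changed sign follow, with Crat and Stat5b not included, and the cause was not tested. On quantile normalization this was Slc22a16 (0.0015). On median centring they were Slc22a5 (0.029), Slc22a15 (0.016) and Slc22a16 (0.023). On poly-A centring they were Slc22a6 (-0.74), Cpt1a (-0.56), Slc25a20 (-0.47), Nap1l4 (-0.62) and 4 that rose as reported, Abcc4 (-0.10), Stab2 (-0.30), Hdc (-0.30) and Xist (-0.29). On hepatocyte centring they were Slc22a5 (0.18), Slc22a15 (0.16), Slc22a23 (0.045), Slc22a12 (0.027), Slc22a13 (0.084), Slc22a16 (0.17), Slc22a17 (0.12), Hnf4a (0.11), Phlda2 (0.11) and Psenen (0.036). With array weights they were Slc22a5 (0.0078, or 0.0084 in the fit over probe sets), Slc22a15 (0.016, or 0.024) and Cdkn1c (0.026). Leaving out each array gave -0.057 to 0.032 for Slc22a5, -0.12 to 0.14 for Slc22a15, -0.33 to 0.052 for Slc22a23, -0.092 to 0.061 for Slc22a16, -0.067 to 0.052 for Slc22a6, -0.20 to 0.11 for Hnf4a and -2.84 to 1.09 for Cyp2b9. No paired analysis was possible because the replicate numbers only name the animals and pair none of them. Dim probe sets can understate fold changes.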
